A study of Mus musculus with 13 samples.

Results

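The experiment described here asked what raised Fezf2 does to the transcriptome of late-labelled cells of the newborn mouse cortex. It comprised 8 of the 13 samples of the series, chosen by their titles: 5 RNA sequencing libraries named Fezf2 + GFP (here Fezf2 replicates 1 to 5) and 3 named GFP (GFP replicates 1 to 3). Both groups came from CD-1® IGS mice. Embryos received Fezf2 or Gfp plasmids by electroporation in utero at E16.5, and FAC sorting of neocortical cells followed at P3. The labels name the NuGEN Ovation V2 system, an RNA amplification kit, for the sorted cells, and reads were single and of 75 bp. Gfp (green fluorescent protein) marks the cells for sorting and served as the control. The titles give Gfp to both groups. The promoter of the plasmids, the number of pooled animals and the sorting gates are not given in the sources used here. No label says that libraries of a group came from separate animals, so the p-values measure only the spread between these libraries. The other samples are a pair of neocortex libraries and 3 chromatin libraries of a cell line.

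Fezf2 is a zinc-finger transcriptional repressor of forebrain progenitors and of deep-layer neurons, where it directs the subcerebral fate, that is, axons to brainstem and spinal cord. Progenitors labelled late in cortical neurogenesis give rise mainly to upper-layer neurons, many of which send axons through the corpus callosum, and then to glia. Radial glia, the stem cells of the cortex, also carry the long fibre along which newborn neurons migrate.

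The libraries held between 3245932 and 5801839 counts, and 13754 genes passed the filter on low counts. The sorted cells carried the markers of young cortical cells. Summed over 14 pan-neuronal genes, levels ranged from 6435 to 9135 CPM (counts scaled to library size). Radial glial genes summed to between 4312 and 10765 CPM over 14 genes. Of 6 red blood cell genes Hba-a1 and Hba-a2 were at 0 in all 8 libraries, the list summed to between 6.51 and 14.0 CPM in 7 libraries and was highest in Fezf2 replicate 4, and the meningeal and choroid plexus list to at most 15.6 CPM. Xist, the long RNA of the inactive X chromosome, was at 5098 CPM in Fezf2 replicate 5 and 5134 CPM in GFP replicate 1, and between 17.7 and 25.3 CPM in the other 6 libraries, so 1 library of each group had a high value.

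Fezf2 itself rose. Its level was 142, 138, 85.1, 151 and 101.5 CPM in Fezf2 replicates 1 to 5 and 8.62, 12 and 3.54 CPM in GFP replicates 1 to 3, and the lowest treated library was far above the highest control. The log2 fold change was 3.91 (SE 0.33, n = 5 against 3, adjusted p = 6.27e-05 by edgeR's quasi-likelihood test with Benjamini-Hochberg adjustment). Counts cannot separate plasmid from chromosomal transcripts. In this fit 1 more gene passed the threshold. Eif1b, which encodes a close relative of the start-codon selection factor Eif1, fell: it was at 126, 107, 169, 183 and 191 CPM with Fezf2 and at 356, 373 and 345 CPM with GFP, with no overlap (log2 fold change −1.20, SE 0.18, edgeR adjusted p = 0.0458). With 1 library left out, the log2 fold change of Eif1b stayed between −1.30 and −1.10, but in 7 of 8 such fits it was not called (edgeR adjusted p up to 0.618, and 0.0192 without Fezf2 replicate 4, where it was), whereas Fezf2 was called in all 8.

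**Figure D1:**
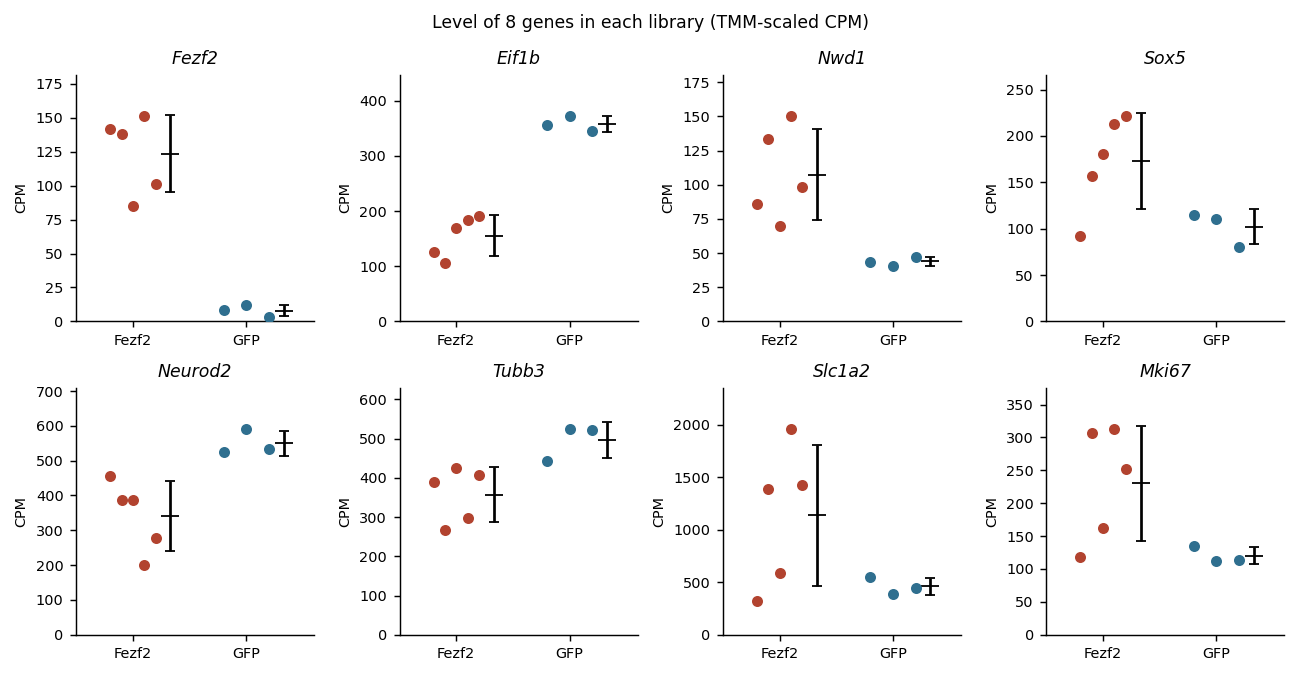
Level of 8 genes in TMM-scaled CPM (vertical axis, from 0) in 5 Fezf2 and 3 GFP libraries, points being libraries in replicate order and bars the mean ± SD. Fezf2, Eif1b, Nwd1, Neurod2 and Tubb3 show groups that do not overlap, while Sox5, Slc1a2 and Mki67 have a Fezf2 library within or below the range of GFP.

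The 2 genes called are 0.0145% of the genes tested, 1 in each direction (0.00727%). At an unadjusted p under 0.05, 901 genes (6.55%) stood out, 593 with higher levels with Fezf2 (4.31%) and 308 with lower levels (2.24%). The groups did not overlap for 648 genes (4.71%), and here the split was nearly even, with 309 higher (2.25%) and 339 lower (2.46%). A random split of 8 libraries into 5 and 3 sets a gene apart with a probability of 0.0357. The excess of higher genes depended on how the counts were modelled. Higher genes made up 65.8% of those at an unadjusted p under 0.05 by edgeR, 55.5% with upper quartile scaling, 48.2% by limma-voom and 86.0% by limma on the deposited RPKM. All genes other than Fezf2 and Eif1b named below had an edgeR adjusted p of 0.31 or more, so their values are descriptions of 8 libraries.

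The size of the differences followed the level of the gene. Below 5 CPM the median absolute log2 fold change over 2211 genes was 0.44, at 5 to 20 CPM it was 0.28 (4504 genes), at 20 to 100 CPM 0.19 (5177 genes), and at 100 CPM and over 0.14 (1862 genes). The standard error fell in the same order, with medians of 0.67, 0.39, 0.23 and 0.16, so most of these differences were smaller than their own error. The signed medians were 0.06, 0.04, 0.03 and 0.00, against 0.02 for all genes. A log2 fold change above 1 was fitted for 334 genes, 194 of them under 5 CPM, and one below −1 for 148 genes, 95 of them under 5 CPM.

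The precision of the libraries also depended on level. At 100 CPM and over, the interval of 2 standard errors on either side of the fold change lay between −1 and 1 for 95.2% of genes. At 20 to 100 CPM this held for 87.0%, at 5 to 20 CPM for 40.1% and below 5 CPM for 0.588%. Over all genes it held for 8097 (58.9%).

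**Figure D2:**
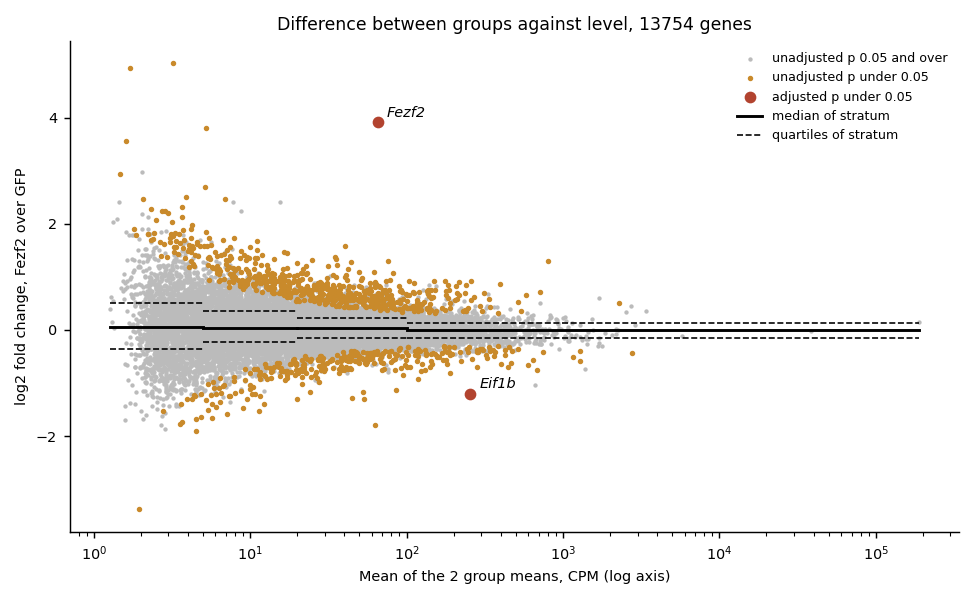
The log2 fold change of Fezf2 over GFP (vertical axis) against the mean of both group means in CPM (log axis) for 13754 genes, with the median and quartiles of each level class as lines. The cloud narrows from left to right, quartiles going from −0.36 and 0.51 below 5 CPM to −0.15 and 0.14 at 100 CPM and over, and the called genes Fezf2 and Eif1b lie outside it.

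The genes of smallest p with groups that did not overlap were taken from each level class. At 100 CPM and over, Grm3, a metabotropic glutamate receptor, was at 154, 197, 144, 178 and 174 CPM with Fezf2 and at 138, 89.3 and 78.7 CPM with GFP. Its log2 fold change was 0.73 (SE 0.19), and only 1 GFP library came near the treated range. Zeb1, a repressor that holds progenitors in an undifferentiated state, had a log2 fold change of 0.70 (SE 0.17), and Npc1, the lysosomal cholesterol exporter, one of 0.66 (SE 0.19). On the lower side, Hs6st2, a heparan sulfate sulfotransferase, was at 204, 125, 147, 89.5 and 120 CPM against 252, 232 and 240 CPM, which gave −0.82 (SE 0.20). Its 3 control libraries lay close together and the treated libraries were spread below them. Pou3f3, a POU factor of upper-layer neurons, stood at −0.69 (SE 0.15).

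In the class of 20 to 100 CPM, Nwd1 was at 85.8, 133, 69.5, 151 and 98.4 CPM with Fezf2 and at 43.8, 40.9 and 46.9 CPM with GFP (log2 fold change 1.29, SE 0.24, edgeR adjusted p = 0.31). The groups were well apart, and the treated libraries varied more than 10 times as much as the controls (SD 33.6 against 3.0 CPM). Syne1, a giant protein that ties the nucleus to the cytoskeleton, had 0.94 (SE 0.21). Snhg5, a host transcript of small nucleolar RNAs, was at 54.6, 74.1, 66.5, 77.1 and 68.7 CPM against 109, 115 and 145 CPM (−0.85, SE 0.16, edgeR adjusted p = 0.411). Cirbp, a cold-induced RNA-binding protein, had −0.71 (SE 0.17), and Ip6k2, an inositol hexakisphosphate kinase, −0.66 (SE 0.15).

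Lower down the scale the fold changes were larger and less certain. At 5 to 20 CPM, Zfp14, a zinc-finger gene, averaged 11.8 ± 4.59 CPM (SD, n = 5) against 2.06 ± 1.08 CPM (SD, n = 3). Ncaph, a condensin subunit, averaged 24.4 ± 8.08 against 8.78 ± 0.513 CPM, and S1pr3, a sphingosine-1-phosphate receptor, 17.3 ± 5.74 against 6.50 ± 0.943 CPM. Their log2 fold changes were 2.47 (SE 0.50), 1.47 (SE 0.33) and 1.41 (SE 0.35). Lower with Fezf2 were Lrp8os2 at −1.46 (SE 0.43), Zc3h8 at −1.30 (SE 0.39) and Chchd7 at −1.24 (SE 0.38). Below 5 CPM, Srgn, a proteoglycan core protein of blood and vessel cells, was between 0.47 and 5.54 CPM with Fezf2 and at 0, 0.251 and 0 CPM with GFP. Gpnmb was the reverse, at 0 in 3 of 5 Fezf2 libraries and between 3.01 and 4.13 CPM in the controls. Slc2a10, a glucose transporter, averaged 2.61 against 0.324 CPM, and Cdk5rap1, an RNA-modifying enzyme, 1.87 against 7.20 CPM. At such levels each library held a handful of counts per gene.

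How far did libraries of a group resemble each other? The 3 GFP libraries did so closely, with a Pearson r of log2 CPM across genes of 0.944 to 0.954. Pairs of Fezf2 libraries ranged from 0.873 to 0.944 (median 0.914 of 10 pairs), and pairs of a Fezf2 and a GFP library from 0.909 to 0.951 (median 0.92 of 15 pairs). Fezf2 replicate 3 thus had an r of 0.951 with GFP replicate 1 and of 0.918 with Fezf2 replicate 4. Genes are not independent replicates, and these values describe the libraries only.

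The first principal component held 27.8% of the variance and ran within the Fezf2 group. Fezf2 replicate 1 scored −74.3 at one end and Fezf2 replicate 4 43.6 at the other, with replicates 2, 3 and 5 at −14.4, 6.92 and 24.0. The 3 controls lay between 1.81 and 8.11. The second component (20.1%) set Fezf2 replicate 2 at 59.8 apart from the rest, of which the next was Fezf2 replicate 4 at 24.3. Fezf2 replicate 1 was the highest of its group for 26% of genes and the lowest for 26.1%. Fezf2 replicate 5 was an extreme least often, at 13.8% and 13.3%.

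The spread within groups differed accordingly. The SD of log2 CPM was larger among the Fezf2 libraries for 76.4% of genes, with a median of 0.42 against 0.25 among GFP libraries. In genes at 100 CPM and over, where counting error is smallest, the medians were 0.25 and 0.12, and 85.2% of genes varied more among Fezf2 libraries. These shares and median SDs depend in part on the unequal number of libraries in the groups. The mean variance, which does not depend on how many libraries a group has, was 1.81 times that of GFP over all genes. At 100 CPM and over it was 2.69 times that of GFP. No measure of depth or composition separated the groups. In exact permutation tests over 8 libraries (two-sided, smallest possible p 0.0357), total count, genes detected at 1 CPM, the share of the 50 most abundant genes, the share of mitochondrial ribosomal RNA and the slope on gene length had p-values of 0.286 to 0.607, all 0.607 after Benjamini-Hochberg adjustment over the 5 measures.

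**Figure D3:**
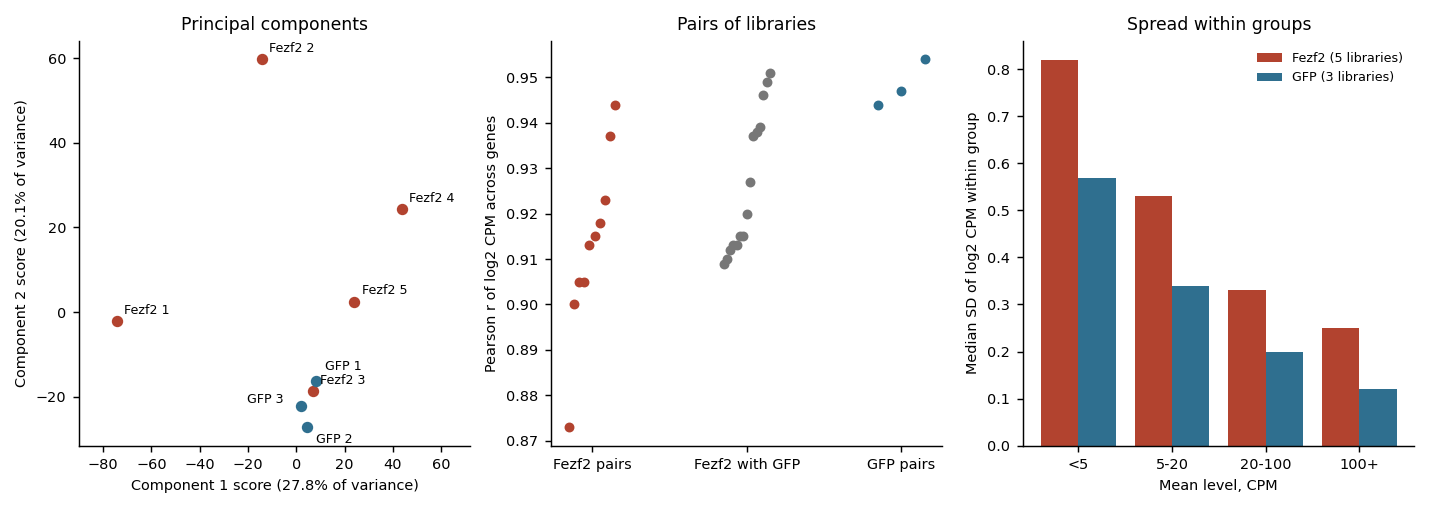
Scores of the 8 libraries on principal components 1 and 2 (left), Pearson r of log2 CPM across genes for each pair of libraries (middle), and the median SD of log2 CPM within each group by level in CPM (right, bars from 0). Fezf2 replicates 1, 2 and 4 lie away from the GFP libraries and from each other, and the Fezf2 bars are higher in each of the 4 level classes.

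Gene length was related to the differences. Over 12870 genes with a known transcript length, split in 5 quintiles, the median log2 fold change was −0.06 in the shortest (75 to 2208 bp) and 0.06 in the longest (6539 bp and over), with 0.01, 0.03 and 0.07 between them. In the shortest quintile 52 genes were higher and 75 lower at an unadjusted p under 0.05, and in the longest 170 were higher and 39 lower. Among genes at 100 CPM and over, the 102 of the shortest quintile had a median of −0.16.

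The trend belonged to part of the Fezf2 group. Fezf2 replicates 1 and 2 stood at −0.17 and −0.18 in the shortest quintile and at 0.11 and 0.12 in the longest, relative to the mean of both groups. Fezf2 replicate 4 went the other way, from 0.11 to −0.09, as did GFP replicates 1 and 2, from 0.10 to −0.03 and from 0.08 to −0.01. Slopes of log2 CPM on log2 length were 0.102, 0.102, −0.0101, −0.0541 and 0.000967 in the Fezf2 libraries and −0.0441, −0.044 and 0.00377 in the GFP libraries, a difference of 0.0562 (exact permutation test, two-sided, p = 0.357). Without Fezf2 replicate 1, or without Fezf2 replicate 2, the difference was 0.0378. When the length trend of each library was removed from the fit, Eif1b (921 bp) and Fezf2 (2313 bp) were still the genes called, with log2 fold changes of −1.07 and 3.95.

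**Figure D4:**
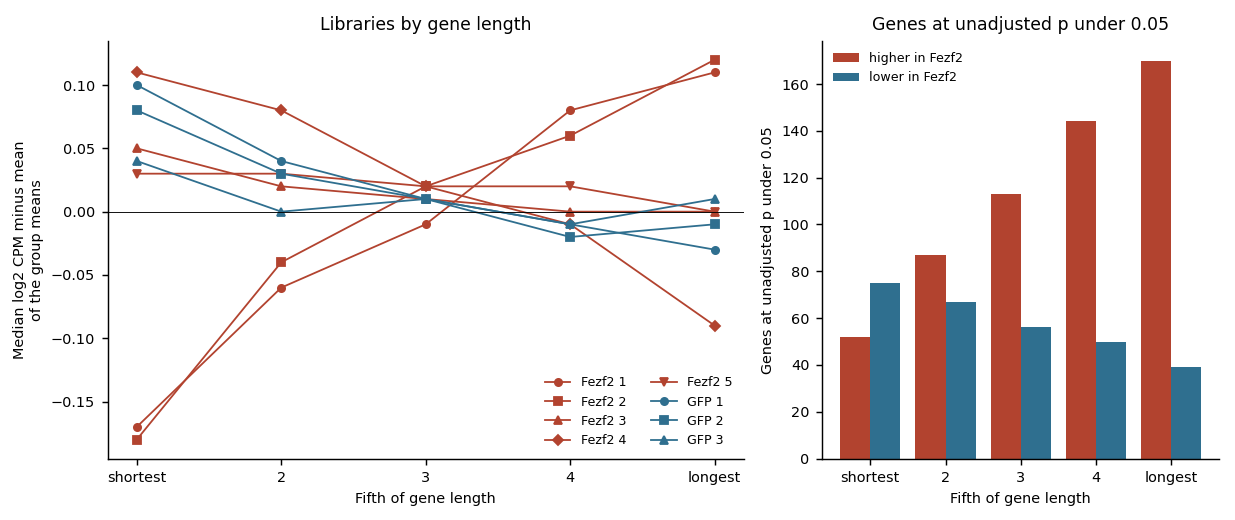
Median log2 CPM of each library, relative to the mean of the group means, by quintile of transcript length (left), and the number of genes at an unadjusted p under 0.05 in each direction by quintile (right, bars from 0). Fezf2 replicates 1 and 2 climb from about −0.17 to 0.11 and the higher genes go from 52 to 170.

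Protein-coding genes (11989) had a median of 0.03, and 4.59% were higher and 2.13% lower at an unadjusted p under 0.05. Long noncoding RNAs (479) had a median of −0.01 with 2.51% higher and 5.01% lower. Of 453 pseudogenes, 0.883% were higher and 1.10% lower. The long noncoding RNAs were shorter (median 2465 against 4087 bp) and less abundant (median 6.26 against 24.1 CPM) than the coding genes.

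Gene classes were then compared by their medians, beside 0.02 for all genes, and by the number of members at an unadjusted p under 0.05, beside the 4.31% higher and 2.24% lower of all genes. The classes were groups of genes by function or cell type, some of them sharing members, and none of these counts is a test of the class. Of 50 classes with at least 5 tested genes, 2 had per-library medians that kept the groups apart, glutamatergic identity genes and small nucleolar RNA hosts, both lower with Fezf2. Among single genes the groups were apart for 4.71%, so the number of such classes was no larger than that background.

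The network around Fezf2 comprised 30 genes, of which 29 were tested, with a median of 0.15. Sox5, a partner of deep-layer specification, was at 92.0, 157, 181, 213 and 222 CPM with Fezf2 and at 115, 111 and 80.5 CPM with GFP (log2 fold change 0.76, SE 0.24). Fezf2 replicate 1 was within the range of the controls and the other 4 were above it. Bcl11b (Ctip2), the main effector of subcerebral axon growth, was at 27.1, 38.5, 39.5, 30.6 and 30.2 CPM against 30.6, 18.6 and 18.0 CPM (0.56, SE 0.25), and here 1 GFP library lay among the treated ones. Ldb2, a LIM cofactor of deep-layer neurons, had 0.52 (SE 0.23) and Crim1, a transmembrane protein of corticospinal neurons, 0.64 (SE 0.37).

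Sox4, a factor of newborn neurons, was below every control in all Fezf2 libraries (−0.39, SE 0.13). Tbr1, a corticothalamic determinant, ranged from 71.9 to 310 CPM with Fezf2 and from 225.3 to 296 CPM with GFP (−0.49, SE 0.32). Bcl11a had −0.35 (SE 0.17), Tle4, a Groucho corepressor, 0.21 (SE 0.22), and Zfpm2 0.22 (SE 0.32).

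Of 12 genes listed for the glutamatergic identity of cortical excitatory neurons, 11 had a negative fold change, with a median of −0.40. The positive one was Slc17a7, a vesicular glutamate transporter, at 0.51 (SE 0.68) with overlap. At an unadjusted p under 0.05, 4 of the 12 were lower, and none passed the adjustment. Per library the median was 0.05, −0.29, −0.02, −0.53 and −0.17 with Fezf2 and 0.29, 0.19 and 0.21 with GFP, so the groups did not overlap. Neurod2, a bHLH factor of excitatory neurons, was at 455, 388, 386, 200 and 279 CPM against 524, 591 and 535 CPM (−0.69, SE 0.21). Id2 was at −0.75 (SE 0.20), Bhlhe22 at −0.54 (SE 0.25) and Neurod6 at −0.38 (SE 0.17). In bulk RNA, fewer cells of a type and less RNA of its genes per cell cannot be told apart. Zbtb18, a repressor needed for cortical neuron differentiation, had −0.56 (SE 0.17) with no overlap.

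Upper-layer and callosal genes had a median of −0.31 over 13 genes, 10 of them negative, but 1 alone, Pou3f3, was lower at an unadjusted p under 0.05. Their per-library medians ran from −0.56 to 0.20 with Fezf2 and from 0.09 to 0.21 with GFP. The subcerebral list had 9 tested genes and a median of 0.10. Of these, 7 were positive and 2 negative, 1 of them below −1, though none was lower at an unadjusted p under 0.05. Its 3 higher members at an unadjusted p under 0.05 were Fezf2, Ldb2 and Bcl11b, so that beside the introduced gene itself 2 of the other 8 were higher. Corticothalamic genes (10) had a median of 0.07 and none at an unadjusted p under 0.05 either way. Intermediate progenitor genes (7 tested) had a median of 0.35, with 4 higher and 3 lower. At an unadjusted p under 0.05, Insm1 was lower (−0.82, SE 0.27, no overlap) and Btg2 higher (0.81, SE 0.32, with overlap). Eomes, of the same list, had 1.07 (SE 0.57) with overlap.

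Genes of neuronal microtubules and intermediate filaments had a median of −0.18, 5 of 25 being higher. Tubb3, the neuronal beta tubulin, was at 388, 268, 425, 298 and 407 CPM against 444, 525 and 523 CPM (−0.48, SE 0.17). Tuba1a (−0.58, SE 0.23) was also lower in every Fezf2 library, and Dcx, which bundles microtubules in migrating neurons, had −0.44 (SE 0.18) with overlap. The 14 pan-neuronal genes together had a median of −0.04.

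Among the classes with at least 5 tested genes, astrocytes had the largest positive median (0.75), followed by vessel cells (0.71), the oligodendrocyte lineage (0.58), interneurons (0.51), radial glia and cycling cells (both 0.45). The Fezf2 libraries differed widely among themselves on these classes. All 14 astrocyte genes had a positive fold change (median 0.75), 3 of them at an unadjusted p under 0.05. Per library the astrocyte median was −0.93, 0.29, −0.18, 1.38 and 0.81 with Fezf2 and 0.01, −0.25 and −0.42 with GFP. Fezf2 replicate 1 was the lowest of all 8 libraries and Fezf2 replicates 2, 4 and 5 the highest. Slc1a2, the astrocytic glutamate transporter, was at 320, 1388, 592, 1959 and 1423 CPM with Fezf2 and at 548, 390 and 448 CPM with GFP (1.30, SE 0.48). Mlc1 (0.97, SE 0.40) and Gja1 (1.22, SE 0.55), which encode astrocyte membrane and gap-junction proteins, were likewise lowest in Fezf2 replicate 1 and highest in Fezf2 replicate 4 within the Fezf2 group.

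Oligodendrocyte lineage genes had a median of 0.58 over 11 genes, 10 of them positive and 5 at an unadjusted p under 0.05. Their per-library medians were −0.04, 0.13, −0.21, 0.90 and 0.38 with Fezf2 and −0.02, −0.44 and −0.23 with GFP, so that Fezf2 replicates 1 and 3 lay among the controls. Bcas1, of early myelinating cells, was at 62.8, 48.3, 55.2, 168 and 88.3 CPM against 45.7, 32.4 and 41.0 CPM, with no overlap (1.09, SE 0.35), and Gpr17 had 0.72 (SE 0.28) with overlap. Radial glial genes had a median of 0.45, 13 of 14 being positive. Their per-library medians were −0.68, 0.15, −0.14, 0.98 and 0.42 against 0.02, −0.36 and −0.13.

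Genes of the radial fibre and its endfoot had a median of 0.44 over 20, with 17 positive and 6 at an unadjusted p under 0.05. Among them, Tnc, an extracellular matrix glycoprotein of the stem cell niche, was at 537, 813, 548, 908 and 739 CPM against 576, 357 and 421 CPM (0.65, SE 0.21). Itga6, a laminin receptor subunit, had 0.99 (SE 0.41), Slc1a3, the radial glial glutamate transporter, 0.86 (SE 0.37), and Numb, an inhibitor of Notch, 0.71 (SE 0.28).

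Cycling genes had a median of 0.45, with 20 of 22 positive and 7 at an unadjusted p under 0.05. Mki67 was at 118, 307, 162, 313 and 252 CPM against 135, 113 and 114 CPM (0.93, SE 0.27), and Top2a, which untangles DNA in mitosis, at 79.0, 190, 110, 190 and 163 CPM against 88.3, 82.5 and 64.9 CPM (0.89, SE 0.26). Fezf2 replicates 2, 4 and 5 were at more than 1.5 times the highest control for both genes, and Fezf2 replicate 1 lay within the controls. Over 21 alternative fits the cycling median ran from 0.09 to 0.64 and the astrocyte median from 0.00 to 0.95. Both were lowest with a replicate block and highest without Fezf2 replicate 1. Under that block, Fezf2 replicates 4 and 5 have no GFP library of the same number and do not bear on the fold change.

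Markers of other cell types were also measured. Interneuron genes had a median of 0.51 over 13, 1 of them higher at an unadjusted p under 0.05. That gene, Dlx1, a homeobox factor of interneuron precursors, was at 52.5, 63.3, 70.5, 88.7 and 60.9 CPM against 36.6, 45.7 and 38.3 CPM (0.74, SE 0.20). Summed over the interneuron list, levels ran from 247 to 536 CPM with Fezf2 and from 293 to 370 CPM with GFP. Vessel genes had a median of 0.71 over 9 tested, 2 of them higher at an unadjusted p under 0.05. Their per-library medians were 0.16, 1.04, −0.91, 0.16 and 0.04 with Fezf2 and −0.37, −0.14 and 0.18 with GFP, another order than that of the astrocyte list. Their summed level was 91.7, 203, 58.7, 131 and 112 CPM with Fezf2 and 61.0, 73.2 and 61.0 CPM with GFP. Rgs5 and Pdgfrb, both of pericytes, had 1.28 (SE 0.38) and 0.95 (SE 0.33), and Cldn5, the defining endothelial junction gene, was too low to be tested. Of 12 microglial genes 4 were tested, and their list summed to between 22.1 and 68.3 CPM. The share of these cell types in the differences described above was not tested.

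**Figure D5:**
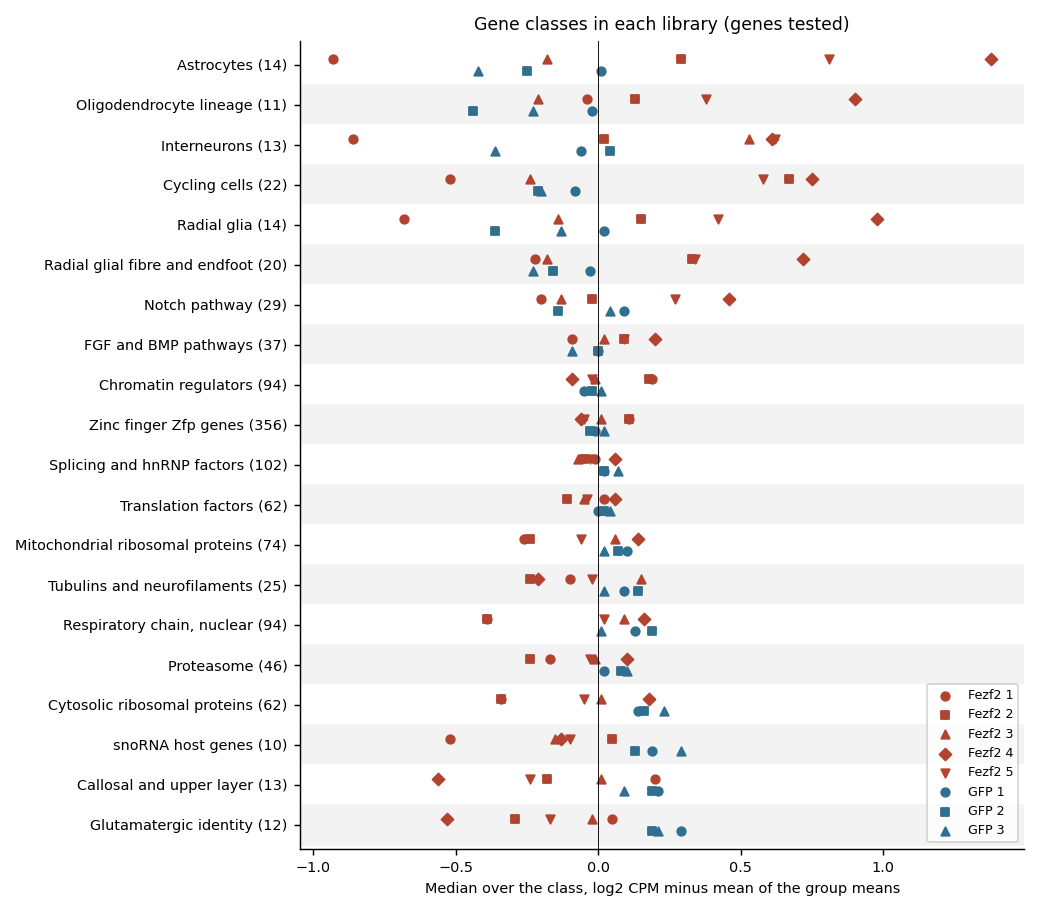
Median over each gene class (rows, with the number of genes tested) of log2 CPM relative to the mean of the group means, one symbol per library, 5 Fezf2 above and 3 GFP below in each row. Astrocyte medians of Fezf2 libraries run from −0.93 to 1.38, while glutamatergic identity and small nucleolar RNA host genes are the rows where no Fezf2 symbol reaches the GFP symbols.

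Rnd3, needed for the migration of cortical neurons, was at 25.9, 56.4, 53.8, 73.1 and 61.5 CPM with Fezf2 and at 20.4, 26.1 and 35.4 CPM with GFP (log2 fold change 1.0, SE 0.30, edgeR adjusted p = 0.719). Fezf2 replicate 1 lay among the controls, and without it the log2 fold change was 1.18 (edgeR adjusted p = 0.103). Over 21 alternatives the log2 fold change of Rnd3 ran from 0.69 to 1.22, and it was called in 1, with no filter on low counts (edgeR adjusted p = 0.0192, and up to 0.999 in the others). Arhgap35 was at 718, 648, 667, 685 and 720 CPM against 713, 660 and 685 CPM. Its log2 fold change was 0.00 (SE 0.13), and the groups overlapped fully.

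Signalling pathways of progenitors had small positive medians, of which that of Notch turned to −0.20 and that of Wnt to −0.13 with a replicate block. Notch genes (29) had a median of 0.22 with 6 higher and 2 lower at an unadjusted p under 0.05. The receptor Notch1 was at 126, 154, 136, 277 and 172 CPM against 121, 103 and 119 CPM (0.60, SE 0.22), its target Heyl had 1.42 (SE 0.46), and Dtx1, a modulator of Notch, was lower at −0.47 (SE 0.20). Wnt genes (36) had a median of 0.12 with 3 higher: the ligand Wnt5a (1.56, SE 0.66), the nuclear effector Tcf7 (0.99, SE 0.41) and the feedback target Axin2 (0.84, SE 0.26). Genes of the FGF and BMP pathways (37) had a median of 0.14, with Fgf1 at 1.40 (SE 0.49) and the receptor Fgfr2 at 0.65 (SE 0.22).

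Genes of protein synthesis and respiration had negative medians. Cytosolic ribosomal proteins (62) had a median of −0.26, with 11 higher and 51 lower, and 4 lower at an unadjusted p under 0.05. Mitochondrial ribosomal proteins (74) had −0.10 with 3 lower, nuclear-encoded respiratory chain genes (94) −0.20 with 2 lower (2.13%) and proteasome subunits (46) −0.22 with none lower, shares near or below the 2.24% of all genes other than the 4.05% of mitochondrial ribosomal proteins. Mitochondrially encoded genes (21), a mix of messenger, ribosomal and transfer RNAs, had −0.67 with 7 lower, and −0.26 without the high-Xist libraries. Several of the messenger RNAs, mt-Co2 and mt-Co3 among them, were not tested, so this median does not describe respiratory chain messengers alone. The summed level of the whole list, most of it ribosomal RNA, did not run the same way. It was 208129 to 301577 CPM with Fezf2 and 200892 to 247920 CPM with GFP. Rps15a was at 163, 157, 146, 128 and 129 CPM against 193, 204 and 185 CPM (−0.43, SE 0.14), lower in each Fezf2 library. Rpl5 had −0.70 (SE 0.25), Mrpl11, of the mitochondrial ribosome, −0.81 (SE 0.22), Ndufb2, a complex I subunit, −0.61 (SE 0.18), and mt-Nd2 −0.75 (SE 0.24). The mitochondrial transfer RNAs mt-Ti, mt-Tq and mt-Tt had −1.16 (SE 0.47), −1.12 (SE 0.41) and −1.4 (SE 0.55), all with overlap.

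The nuclear classes are made of short genes, with a median length of 1663 bp for ribosomal and 1493 bp for respiratory chain genes. Per library the ribosomal median was −0.34, −0.34, 0.01, 0.18 and −0.05 with Fezf2 and 0.14, 0.16 and 0.23 with GFP, and the respiratory chain median −0.39, −0.39, 0.09, 0.16 and 0.02 against 0.13, 0.19 and 0.01. Fezf2 replicates 1 and 2 were the lowest in both. With the length trend removed the medians were −0.17 and −0.10, and that of the proteasome −0.13. Mitochondrially encoded genes had another order, with per-library medians of 0.43, −1.07, −0.02, 0.08 and −0.69 against 0.85, 0.01 and 0.10.

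Small nucleolar RNA hosts (10 tested) had a median of −0.31, 8 of them negative, and −0.22 with the length trend removed. Per library the median was −0.52, 0.05, −0.15, −0.13 and −0.10 with Fezf2 and 0.19, 0.13 and 0.29 with GFP. Besides Snhg5, Snhg1 was lower at an unadjusted p under 0.05 (−0.49, SE 0.22). Translation factors (62) had a median of −0.08 with 3 lower, namely Eif1b, the elongation factor Eef1a1 (−0.56, SE 0.23) and the helicase Eif4a2 (−0.33, SE 0.13), all with groups that did not overlap.

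Many transcripts of the translation machinery begin with a run of C and T, through which their translation is regulated as a group. The windows around the annotated start of 6 lower genes are shown to let a reader see whether they share it. Each holds the 25 bases before the start and the 15 bases from it, read 5′ to 3′ on the gene's strand (RefSeq, GRCm38.p6). Capitals mark the longest run of C and T that comes within 5 bases of the start.
Eif1b, chr9:120492581-120492620, plus strand: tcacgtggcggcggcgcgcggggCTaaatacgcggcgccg
Snhg5, chr9:88522883-88522922, minus strand: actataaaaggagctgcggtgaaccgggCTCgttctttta
Rpl5, chr5:107900503-107900542, plus strand: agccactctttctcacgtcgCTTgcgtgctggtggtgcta
Rps15a, chr7:118116133-118116172, minus strand: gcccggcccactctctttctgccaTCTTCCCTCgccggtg
Eef1a1, chr9:78481710-78481749, minus strand: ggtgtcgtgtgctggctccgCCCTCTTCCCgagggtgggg
Snhg1, chr19:8723462-8723501, plus strand: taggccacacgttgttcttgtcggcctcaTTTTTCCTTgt

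A run of at least 7 was present in Rps15a, Eef1a1 and Snhg1, and the runs of Eif1b, Snhg5 and Rpl5 were 2, 3 and 3 bases. Longer runs lie farther from the annotated start in the windows of Snhg5, Rpl5 and Rps15a, so these lengths hold for this start and distance only. Such a run, searched on the gene's strand at the first listed start, was held by 14.0% of 27025 genes with a promoter in the table and by 43.5% of the 46 cytosolic ribosomal protein genes matched. Among genes lower at an unadjusted p under 0.05 it was held by 13.1% of 229, and among higher ones by 14.9% of 437. For the genes whose groups did not overlap, the shares were 15.4% of 253 lower and 11.4% of 229 higher, against 13.7% of the 9939 tested genes matched. The lower genes as a whole were thus close to all tested genes in this feature. A run in this window is a match of letters only. Whether transcripts of these cells begin at the annotated starts, that of Eef1a1 included, was not tested.

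Regulators of transcription and RNA gave medians near that of all genes. Chromatin regulators (94) had a median of 0.09 with 5 higher and 1 lower. Kmt2c, a histone methyltransferase, was at 649, 683, 557, 576 and 572 CPM against 472, 458 and 493 CPM (0.36, SE 0.14), Chd7, a remodeller, had 0.48 (SE 0.19), and the deacetylase Hdac5 was the lower one at −0.45 (SE 0.18). Zinc-finger genes named Zfp (356) had a median of 0.06 with 10 higher and 7 lower, and splicing and hnRNP factors (102) −0.07 with 2 higher and 1 lower. That last gene, Hnrnpa0, was at 195, 184, 379, 399 and 423 CPM against 486, 494 and 499 CPM (−0.64, SE 0.24). Fezf2 replicates 1 and 2 were again the lowest and the 3 controls agreed closely.

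Surface proteins differed little as classes. Solute carriers (209) had a median of 0.09 with 13 higher and 2 lower at an unadjusted p under 0.05. Slc22a8, an organic anion transporter, averaged 8.95 against 1.28 CPM. Glutamate and GABA receptors (40) had a median of 0.20 with 3 higher, all for glutamate: Grm3, Grik3 (0.76, SE 0.25) and Grin3a (0.56, SE 0.19). Orphan and adhesion receptors coupled to G proteins (59) had 0.19 with 6 higher, among them Gpr37l1, an astrocytic receptor (1.45, SE 0.41). Cadherins and protocadherins (51) had a median of 0.03, and their lower member of smallest p was Cdh12, at 51.6, 28.2, 40.4, 8.95 and 33.6 CPM against 77.0, 69.2 and 73.1 CPM (−1.17, SE 0.34). Synaptic vesicle and SNARE genes (71) had a median of 0.01, and Stx18, a SNARE of the endoplasmic reticulum, −0.69 (SE 0.22).

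The pair of neocortex libraries, 1 labelled Fezf2 knockout and 1 wild type, was set beside these differences without a test. Fezf2 was at 53.5 CPM in the library labelled knockout and at 51.4 CPM in the library labelled wild type, so its level goes against the label. Whether the counted reads lie in the deleted part was not tested. Of the other network genes described above, Tle4, Zfpm2 and Bcl11b were the lowest in the library labelled knockout. Their log2 ratios of knockout over wild type, relative to the median gene, were −1.88, −1.54 and −1.13. Crim1, Ldb2, Sox5, Tbr1 and Bcl11a lay between −0.42 and −0.15, and Sox4 was at 0.28. Of the 484 genes higher with Fezf2 at an unadjusted p under 0.05 that were measurable there, 53.1% were lower in the library labelled knockout. Among all 10867 genes 5433 were lower, a share fixed by taking the ratios relative to the median of these same genes. Of 263 genes lower with Fezf2, 54.4% were lower in the library labelled knockout too. Neither share of the selected genes was far from that fixed share. The pair came from whole P0 neocortex of C57BL6/J mice and was made with another kit, and for the knockout the labels give deletion of a floxed Fezf2 allele by Emx1-cre.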

How the data were processed

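Counts per gene as deposited by the authors were analysed for 8 libraries of sorted cells. Per the submitters' processing notes, the tools used included STAR 2.4.0e and HTSeq 0.6.1, with the mm9 build. Annotation and strand handling were not given in the sources used here. Overlapping, antisense and near-identical genes may share reads. RPKM values deposited by the authors gave transcript lengths, from the ratio of count to RPKM in the neocortex libraries (the 2 estimates differed by a median of 0.0168%). For sorted cells the RPKM came from another count, since 2309 to 3568 genes per library had a count of 0 and RPKM above 0. Of 35972 identifiers, 31707 (88.1%) were named by identifier and 2578 by symbol or synonym.

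The main test was edgeR 4.0.16 in R 4.3.3 (quasi-likelihood test with robust estimates after TMM scaling and the filterByExpr filter, p-values adjusted by Benjamini-Hochberg over 13754 genes, limit 0.05), with a biological coefficient of variation of 29.8%. CPM were TMM-scaled, log2 CPM used a prior count of 2, and each SE was the log2 fold change divided by the root of F. Per-library class values are log2 CPM minus the mean of the group means. Alternatives used DESeq2 1.42.0, limma 3.58.1, and log2(RPKM + 0.1). The scripts were tested on simulated data. Named genes were the Fezf2 network, genes called, the 3 higher and 3 lower of smallest p with groups apart in each level class, and up to 4 of smallest p per class. The 6 start windows and all members and lists were chosen with earlier results of these data known. Some genes and classes are not reported here.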

Additional observations from a re-analysis of the deposited data

Results flagged for a closer look

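Among 141 sets of 5 Fezf2 values (library measures, class medians and named genes), 4 held a library far from the other 4 by Dixon's criterion, and chance flags about 1 in 20. Fezf2 replicate 5 had 16185 genes at 1 CPM or more, above the other Fezf2 libraries (15082 to 15363). Fezf2 replicate 2 had the highest median over kinesins and dyneins, 0.16, where the other 4 lay between −0.09 and −0.03. Fezf2 replicate 4 had the lowest median over predicted genes, −0.04, against 0.01 to 0.03. Gpnmb was at 1.29 CPM in Fezf2 replicate 5 and at 0.264 CPM or less in the others.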

How the results depend on the processing

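Over 21 alternative fits, Fezf2 was called in each (log2 fold change 3.58 to 4.27) and Eif1b in 11 (−1.44 to −1.07). Of 1751 fold changes of 84 named genes, 13 turned sign. With the replicate number as a block, Tle4 went to −0.04 and Zfpm2 to −0.15. Arhgap35, at 0.00, took the values −0.05 with the length trend removed, −0.03 with upper quartile factors, −0.02 under the block, without mitochondrial genes, without Fezf2 replicate 5 and without GFP replicate 2, −0.01 without a filter and without Fezf2 replicate 1, and 0.00 at a minimum of 5 CPM, without Fezf2 replicate 4 and without GFP replicate 3, and with a library left out it ran from −0.02 to 0.03 (highest without GFP replicate 1). Of 1111 class medians, 1073 moved by less than the spread between Fezf2 libraries. At a minimum of 5 CPM the meningeal and choroid plexus list had no genes and gave no value. Mitochondrially encoded genes gave none in the fit that left them out. Depth limited low genes most, since 13 of 2211 genes under 5 CPM had an interval of 2 standard errors between −1 and 1. The RPKM fit shifted the median of all genes from 0.02 to 0.13.

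The 2 calls became 6 by DESeq2 (with Erbb3, Nwd1, Snhg5 and Zfp14), 4 by limma-voom with sample weights (with Hs6st2 and Nwd1), 117 with no filter (79 higher, 38 lower), 1 with high Xist as a covariate or its 2 libraries left out, and 1 to 2 with a library left out. The 901 genes at an unadjusted p under 0.05 became 587 (374 higher) without the high-Xist libraries, 1441 with sample weights (623 lower), 2030 with no filter (966 higher, 1064 lower) and 492 to 1292 with a library left out (317 to 874 higher, 175 to 418 lower), fewest without GFP replicate 2. By RPKM 86 were lower, and 465 of the 901 kept a p under 0.05. The 648 genes with groups apart were 425 by RPKM, 1905 without the high-Xist libraries, and 928 to 1470 with a library left out. Groups of fewer libraries are apart more easily, so the counts with libraries left out cannot be set against the 648. The causes were not tested. The length difference between the longest and shortest quintile (0.12) was 0.08 to 0.19 with a library left out and −0.03 once the trend was removed.

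Replicate numbers 1 to 3 occur in both groups, but same-numbered libraries did not deviate together (r across genes −0.0528, −0.0136 and −0.045). No label says that they share more than a number, and a shared litter or sorting day was not tested. Under a block by number the fold changes rest on replicates 1 to 3 of each group, since higher numbers occur only with Fezf2. With the replicate block the astrocyte median was 0.00, the radial glial one 0.02 and the cycling one 0.09, and those of Notch and Wnt genes turned to −0.20 and −0.13. It gave 6 calls (Fezf2, Eif1b, Rpl5, Fam69a, H2-D1 and H2-K1) and 1032 genes at an unadjusted p under 0.05, 557 of them lower.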
